A study of Mus musculus with 18 samples.

Results

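The 6 libraries described here, of 18 in the series, are the control cultures of a study of mouse cortical neurons, and were taken as the columns titled mSc 1 to mSc 6. Neuronal cultures from cortex received lentivirus for overexpression of mScarlet (mSc), a red fluorescent protein, on day 7 in vitro, and RNA was taken after 10 further days. Poly(A)-selected RNA was sequenced, and the deposited values are raw read counts per gene. The labels give no strain, animal age, promoter or virus dose, nor the animals or dissections behind each of the 6 libraries, so part of the spread between them may be technical. A treatment text shared by all samples names an Ifng construct, whereas the titles and treatment tags of these 6 name mSc. Ifng, the gene of interferon gamma, had no count in 5 of the libraries and stood at 0.0455 CPM (counts per 1000000 counts) in library 5.

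Neurons in culture are recognised by cytoskeletal and synaptic genes such as Tubb3, by the vesicular transporter Slc17a7 in glutamatergic cells and by the GABA-synthesising enzymes Gad1 and Gad2 in inhibitory cells. Astrocytes, marked by Gfap, and cells of the oligodendrocyte lineage commonly grow beside them. Glutamate acts on NMDA, AMPA, kainate and metabotropic receptors and GABA on GABA-A and GABA-B receptors. Most of these are assembled from several subunits, so the set of subunit genes that is expressed bears on which receptors can be built. In a bulk library, fewer cells of a type and less RNA per cell cannot be told apart.

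Levels are given as CPM after TMM scaling, a correction for differences in library composition. Where different genes are compared, they are given as CPM per kilobase (kb) of exon, since a long transcript yields more reads. Library totals ran from 15337511 to 21074229 counts, so 1 CPM stands for 15.3 to 21.1 counts, and the limit that a count of 0 allows (3 counts) was at most 0.194 CPM. At least 1 CPM was reached in every library by 13410 genes, and in at least 1 library by 15179. Libraries 3 and 6 resembled each other, as did libraries 2 and 5: over 11533 genes the median absolute log2 difference was 0.093 within 3 and 6 and 0.09 within 2 and 5. Library 1 stood apart in glial genes, and libraries 3 and 6 in interferon-stimulated genes. Copies of a library were not found: in all 15 pairs the gene counts differed by a chi-square of 4.12 or more for each degree of freedom. Xist ranged from 262.5 to 702 CPM and the Y-linked Ddx3y from 25.6 to 45.1 CPM, so each library held RNA from male and female tissue.

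Genes of the mitochondrial genome and of neuronal secretion and transport headed the control transcriptome. The most abundant gene was mt-Co1, a catalytic subunit of respiratory complex IV, with 12070 ± 2035 CPM (SD, n = 6). Meg3, a maternally expressed long non-coding RNA, followed with 8365 ± 931 CPM. mt-Cytb, mt-Nd5 and mt-Nd1, subunits of the respiratory chain, had 5172 ± 884, 3668 ± 657 and 3168 ± 500 CPM. The first nuclear protein-coding gene was Cpe, carboxypeptidase E of neuropeptide processing, with 2912 ± 440 CPM. Vgf, a secreted neuropeptide precursor, had 2801 ± 616 CPM. Kif1a, a motor of axonal transport, App, the amyloid precursor protein, and Psap, a lysosomal precursor, lay between 2215 and 2394 CPM.

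The 10 most abundant genes held 4.57% of the CPM, the first 100 held 15.5% and the first 1000 held 47.1%. Protein-coding genes held 97.5%. Only 45 genes reached 1000 CPM in every library, and 2117 reached 100 CPM. Per kb the order changed in favour of short transcripts. After mt-Co1 (7812 ± 1317 CPM per kb) came Gm23935, annotated as a miRNA gene, with 5565 ± 1949 CPM per kb from only 317 CPM. Among nuclear protein-coding genes the highest per kb were Cpe (1116 ± 169), Tuba1a, an alpha-tubulin of neurons (944 ± 84.3), Vgf (942 ± 207), the ribosomal gene Rplp1 (935 ± 31.9) and Apoe, a lipid carrier of astrocytes (877 ± 403 CPM per kb). The 13 protein genes of the mitochondrial genome were uneven: 7 of them ran from 1010 CPM (mt-Nd6) to 12070 CPM, and the other 6 from 1.31 CPM (mt-Atp8) to 53.2 CPM (mt-Co2). How reads that map to several places were treated is not given in the sources used here, and its part in this gap was not tested.

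**Figure D1:**
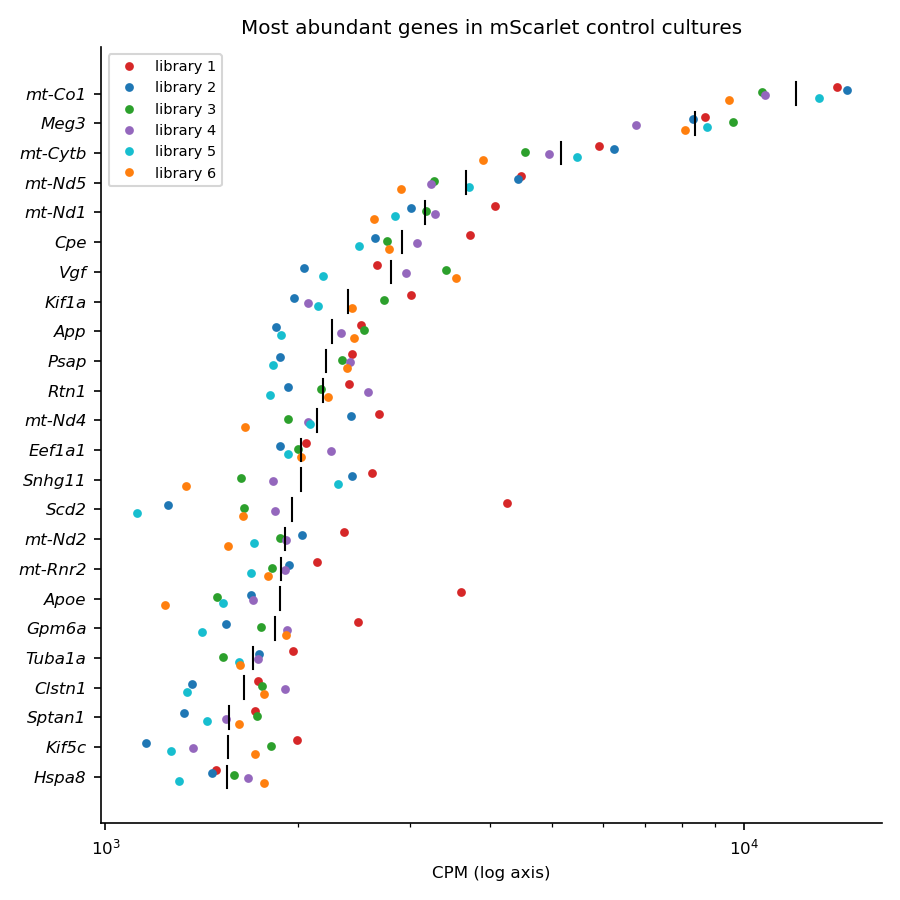
CPM (log axis) of 24 of the 25 most abundant genes, with a coloured point for each of the 6 control libraries and a black bar at the mean. The first gene, mt-Co1, averages 12070 CPM; most genes spread little, while the points of library 1 lie far to the right for Scd2 (4248 CPM) and Apoe (3601 CPM).

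Neuronal transcripts were high and even. All 22 genes of a pan-neuronal list were above 1 CPM, and the mean level of the list ran from 8.06 to 8.24 log2 CPM over the libraries. Tubb3, beta-III tubulin (chr8:123411424-123422015, GRCm38), had a lowest value of 262 CPM, a mean of 305 ± 27.8 and a highest of 343 CPM. Per kb the leading members were Stmn3, a microtubule regulator (305 ± 30.7), Uchl1, a neuronal deubiquitinase (300.5 ± 14.1), and Gap43, a growth cone protein (297 ± 29.4 CPM per kb). They were followed by Syn1, a synaptic vesicle protein, Thy1, a surface glycoprotein, and Tubb3 itself, at 183, 180.4 and 163 CPM per kb. The neurofilament genes Nefl, Nefm and Nefh were lower, at 27.2, 8.84 and 4.09 CPM per kb.

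The glutamatergic side was dominated by Slc17a7, the vesicular transporter VGLUT1. Its level (chr7:45163949-45176142) was 582 CPM in library 3 at the lowest and 1025 CPM in library 1 at the highest, with a mean of 757 ± 182. Slc17a6, the VGLUT2 gene on the same chromosome, ran from 23.3 to 41.6 CPM, so the ranges did not overlap. Per kb, Slc17a7 exceeded Slc17a6 by 24.6-fold on average, in 6 of 6 libraries (exact two-sided sign-flip permutation test, adjusted p = 0.0329 over 20 ratios, n = 6). This is the smallest value that 6 libraries and 19 such ratios allow. It applies to each of the 19 of 20 ratios (95%) called different from 1. The gene pairs were chosen with earlier results of these data known. A ratio on the same side of 1 in all 6 libraries always gets the smallest p of this test. The calls therefore restate that direction and are not independent evidence. The test takes the libraries as independent, but the labels do not give the animals or dissections behind them. Whether the libraries that resembled each other share a preparation was not tested. If they do, the p-values of all these ratios are too small, and only the direction and size of the ratios stand. Slc17a7 made up 95.7% ± 1.47 of the summed level per kb of its 3-gene family, and Slc17a8 made up 0.273%. Other genes of excitatory neurons were Nrgn, a postsynaptic calmodulin-binding protein (205 ± 72.1 CPM per kb), Camk2a, a synaptic kinase (151 CPM per kb), and Sv2b, a vesicle glycoprotein (93.9 CPM per kb). Nrgn was lowest in libraries 3 and 6, at 175 and 177 CPM, and between 319.7 and 444 CPM in the others. All 20 genes of a cortical layer list were above 1 CPM. Both upper-layer genes such as Cux2 (74.6 CPM) and deep-layer genes such as Tbr1 (63.4 CPM), Tle4 (35.7 CPM) and Fezf2 (14.3 CPM) were present.

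Inhibitory neurons were represented at a lower level. Gad1 (chr2:70553072-70602014) ran from 215 to 346 CPM with a mean of 263 ± 51.2, and Gad2 ran from 113 to 179.6 CPM with a mean of 134 ± 24.7. Per kb, Slc17a7 exceeded Gad1 by 4.05-fold (range 3.57 to 4.65), and Gad1 exceeded Gad2 by 1.51-fold (range 1.39 to 1.7). Both ratios differed from 1 by the exact test, in 6 of 6 libraries, but the second was 3.13-fold with the longest transcript as length. Slc32a1, the vesicular GABA transporter, had 45.6 CPM per kb. The peptides of interneuron classes were unequal. Cck, cholecystokinin, which excitatory cells also express, had 294 ± 81.1 CPM, and Sst, somatostatin, had 157 ± 55.1 CPM. Npy, neuropeptide Y, had 17.7 CPM and Vip, vasoactive intestinal peptide, had 10.4 CPM. Pvalb, the calcium-binding protein of fast-spiking interneurons, stayed between 0.137 and 0.813 CPM. Sst was lowest in libraries 3 and 6 (90.1 and 92.9 CPM against 157 to 226 CPM). Libraries 3 and 6 were the lowest pair in 9 of the 17 detected genes of the inhibitory list. The same pair was lowest in 8 of 20 genes of the cortical layer list and 8 of 22 of the pan-neuronal list, and in 15.3% of all 14345 genes at a mean of 1 CPM or more.

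**Figure D2:**
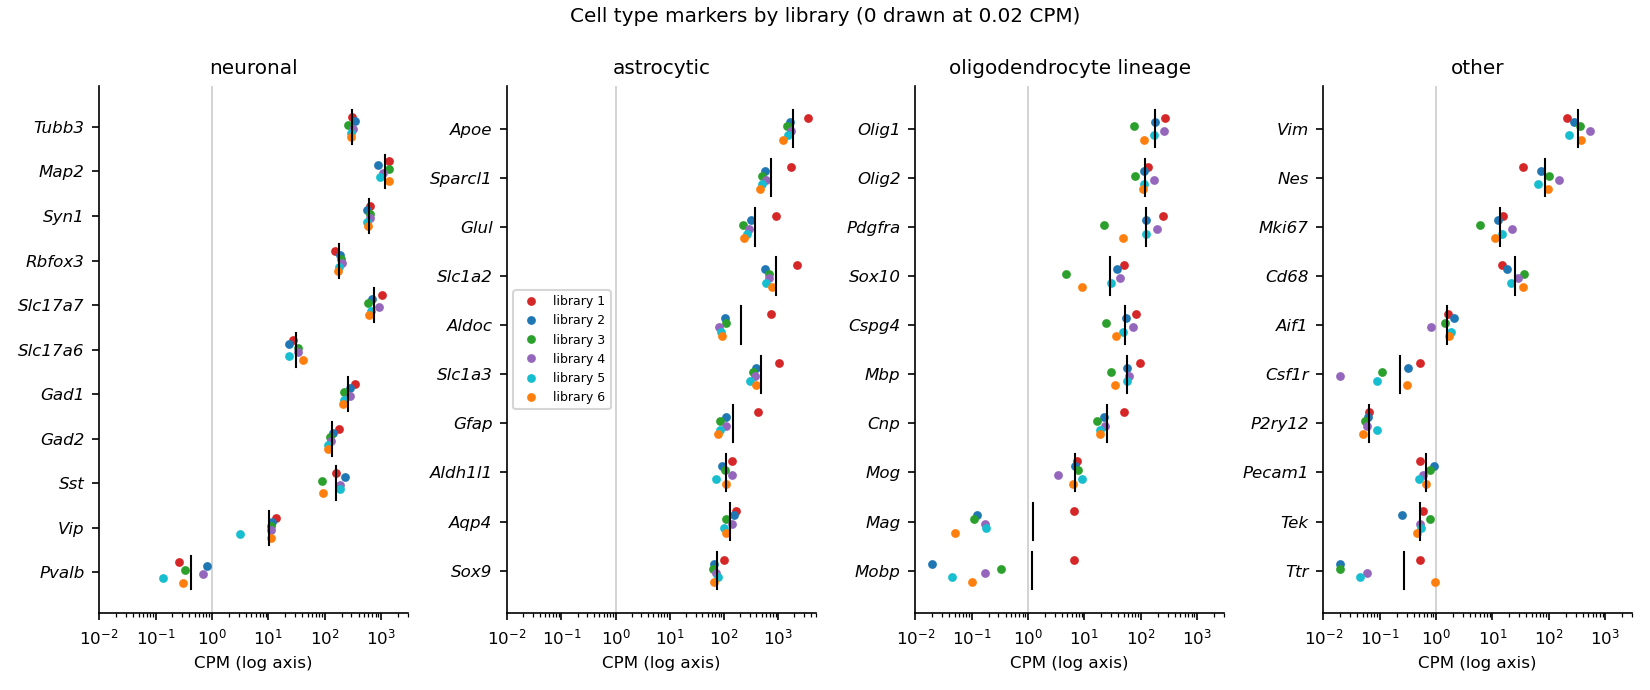
CPM (log axis, grey line at 1 CPM, values of 0 drawn at 0.02 CPM) of markers of neurons, astrocytes, the oligodendrocyte lineage and other cells, with 1 coloured point per library and a black bar at the mean. Among neuronal genes the points of Tubb3 cluster at 262 to 343 CPM, while those of Sst and Pvalb spread more widely. Astrocytic genes such as Gfap and Aldoc have library 1 alone at the right, and the microglial P2ry12 stays below 1 CPM.

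Astrocyte transcripts were abundant in every control library and highest in library 1. Their list summed to 13597 CPM in library 1 and to 4612 to 5479 CPM in the other 5, against 8802 to 9766 CPM for the pan-neuronal list over all 6. Gfap, an intermediate filament protein (chr11:102887336-102900912), had 421 CPM in library 1 and 77.2 to 111 CPM elsewhere. Aldoc, the aldolase of astrocytes, had 749 CPM in library 1 and 82.8 to 107 CPM elsewhere. The glutamate transporter Slc1a2 had 2254 CPM in library 1 and no more than 763 CPM in the others, and glutamine synthetase, Glul, had 911 CPM against at most 321 CPM. Library 1 was the highest in 18 of the 19 detected members, against 22.5% of all genes; the exception was Clu, clusterin, whose highest value was 451 CPM in library 2. Per kb, Tubb3 exceeded Gfap 1.67-fold in library 1 and 6.75-fold to 8.66-fold in the others (exact test, in 6 of 6 libraries). The mean of 5.78-fold became 3.63-fold with the longest transcript and 2.56-fold without length, where the test was missed.

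Library 1 was also the highest in 7 of the 13 detected genes of a neural progenitor list (22.5% of all genes), among them Sox2 (102 CPM) and Fabp7 (164 CPM). It was the lowest in 3, near the 20.6% of all genes, and library 3 was the lowest in 6 (15.1% of all genes). Of the 3 genes lowest in library 1, Vim and Nes are filament genes of immature and reactive glia, and Hes1 is a transcription factor of the Notch pathway. Vim had 215 CPM in library 1 and 535 CPM in library 4, and Nes had 35 CPM in library 1 and 153 CPM in library 4. Library 4 was also the highest in 12 of the 14 genes of a cell division list (16.2% of all genes), and library 3 the lowest in 11 (15.1% of all genes). Mki67, a protein of cycling cells, was at 6.08 CPM in library 3, at 22.1 CPM in library 4 and at 13.8 CPM on average.

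The oligodendrocyte lineage was represented mainly by its precursor genes. Olig1, a transcription factor of the lineage, had 178 ± 74.9 CPM, Pdgfra, the growth factor receptor of precursors, had 126 ± 85 CPM and Sox10, a lineage regulator, had 28.9 ± 18.4 CPM. Libraries 3 and 6 held the lowest values of all 3 genes: Pdgfra was at 22.3 and 47.8 CPM there and at 122 to 248 CPM elsewhere. Sox10 was at 4.75 and 9.21 CPM there and at 29.1 to 50.2 CPM elsewhere. Genes of myelin were unequal, and some were near the detection limit outside library 1. Mag and Mobp had 6.65 and 6.45 CPM in library 1 and at most 0.182 and 0.332 CPM in the others. Mog, another myelin protein, did not set library 1 apart, with 3.4 to 9.01 CPM, and Cnp, an enzyme of the lineage, had 50.5 CPM in library 1 and 16.5 to 23.1 CPM in the others. Mbp was higher, with 29.2 to 98.2 CPM; other transcripts of its locus cannot be told apart by gene counts.

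Markers of cells from outside the neural lineage were unequal. A fibroblast and meningeal list summed to 179.5 to 429.6 CPM, with 7 of 14 genes at 1 CPM or more. They were Pdgfra, which is also the precursor gene above, the matrix genes Col6a1 (113 CPM), Fn1 (31.1 CPM) and Dcn (13.7 CPM), and Ptgds, Col1a1 and Foxc1 at 1.05 to 5.98 CPM. The collagen genes Col1a2 and Col3a1 averaged 0.22 and 0.0801 CPM. The microglial and endothelial lists were lower. Of 18 microglial and macrophage genes, 4 averaged 1 CPM or more, among them Cd68 (25.5 CPM), Sall1 (13.4 CPM) and Aif1 (1.59 CPM). Tmem119 had no count, and Cx3cr1, P2ry12, C1qa and Csf1r averaged between 0.0486 and 0.223 CPM. Of 18 endothelial and mural genes 3 reached 1 CPM, led by Pdgfrb (6.99 CPM), and Cldn5, a tight junction protein of brain endothelium, had no count. No gene of an 8-gene erythroid list reached 1 CPM.

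NMDA receptor genes were led by Grin1, the obligatory GluN1 subunit, with 87.4 ± 11.8 CPM per kb (684 to 948 CPM). Among the GluN2 subunits Grin2b had 15.1 ± 2.72, Grin2d 8.21 ± 3.43, Grin2a 0.726 ± 0.202 and Grin2c 0.411 CPM per kb. Grin2b exceeded Grin2a in all 6 libraries, by 17.5-fold to 25.1-fold with a mean of 21 (exact test, adjusted p = 0.0329). In rodent cortex GluN2B is the earlier and GluN2A the later subunit. Grin2b was not above Grin2d in every library. Grin2d had 30.8 and 30.6 CPM in libraries 3 and 6, 43.1 CPM in library 4 and 68.7 to 84.5 CPM in libraries 1, 2 and 5. The Grin2b share of the GluN2 sum therefore ran from 47.7% to 76%, and the Grin2d share from 18.8% to 49.2%. Grin3a, a subunit that lowers calcium entry, had 100.1 CPM in library 1 and 22.9 to 46.6 CPM in the others. Grin3b averaged 0.572 CPM.

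Of the AMPA receptor genes, Gria1 and Gria2 were near equal per kb, at 72.5 ± 9.08 and 67.9 ± 7.82. GluA2, the product of Gria2, makes AMPA receptors impermeable to calcium. The Gria2 to Gria1 ratio ran from 0.769 to 1.18 and was above 1 in 2 of 6 libraries (exact test, adjusted p = 0.344), so no difference was detected. It depended on the length used: with the longest transcript in place of the exon union the log2 ratio was 0.37, and with no length 1.27. Gria3 and Gria4 had 16.6 ± 3.78 and 14.5 ± 1.44 CPM per kb and did not keep 1 order over the libraries. Gria2 exceeded Gria3 by 2.94-fold to 5.24-fold (exact test, 6 of 6 libraries), with a mean of 4.17-fold that was 6.57-fold without length. All 13 auxiliary genes were detected, led by the cornichon Cnih2 (161 CPM per kb), Cacng7 (79.3) and Cacng8, also called TARP gamma-8 (58 CPM per kb). Cacng2, stargazin, had 19.5 CPM per kb and Cacng5 had the second lowest level, 3.71 CPM per kb, above Shisa6 with 3.39 CPM per kb.

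Grik5, a kainate receptor subunit that needs a partner to form channels, had 107 ± 7.32 CPM per kb and made up 82.8% ± 3.52 of the kainate subunit sum. The subunits that can form channels alone, Grik1, Grik2 and Grik3, had 3.16, 4.35 and 12.04 CPM per kb, and Grik4 had 2.7 CPM per kb. The delta receptor gene Grid1 had 22.2 CPM per kb. Among the metabotropic glutamate receptors Grm5 led with 27.7 ± 4.07 CPM per kb, followed by Grm7 with 19.6. Grm3, a receptor shared with astrocytes, had 67.6 CPM in library 1 and 19.1 to 37.3 CPM in the others. Grm2, Grm4 and Grm8 had 10.03, 7.9 and 0.865 CPM per kb, and Grm6, the retinal receptor, averaged 0.0183 CPM.

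**Figure D3:**
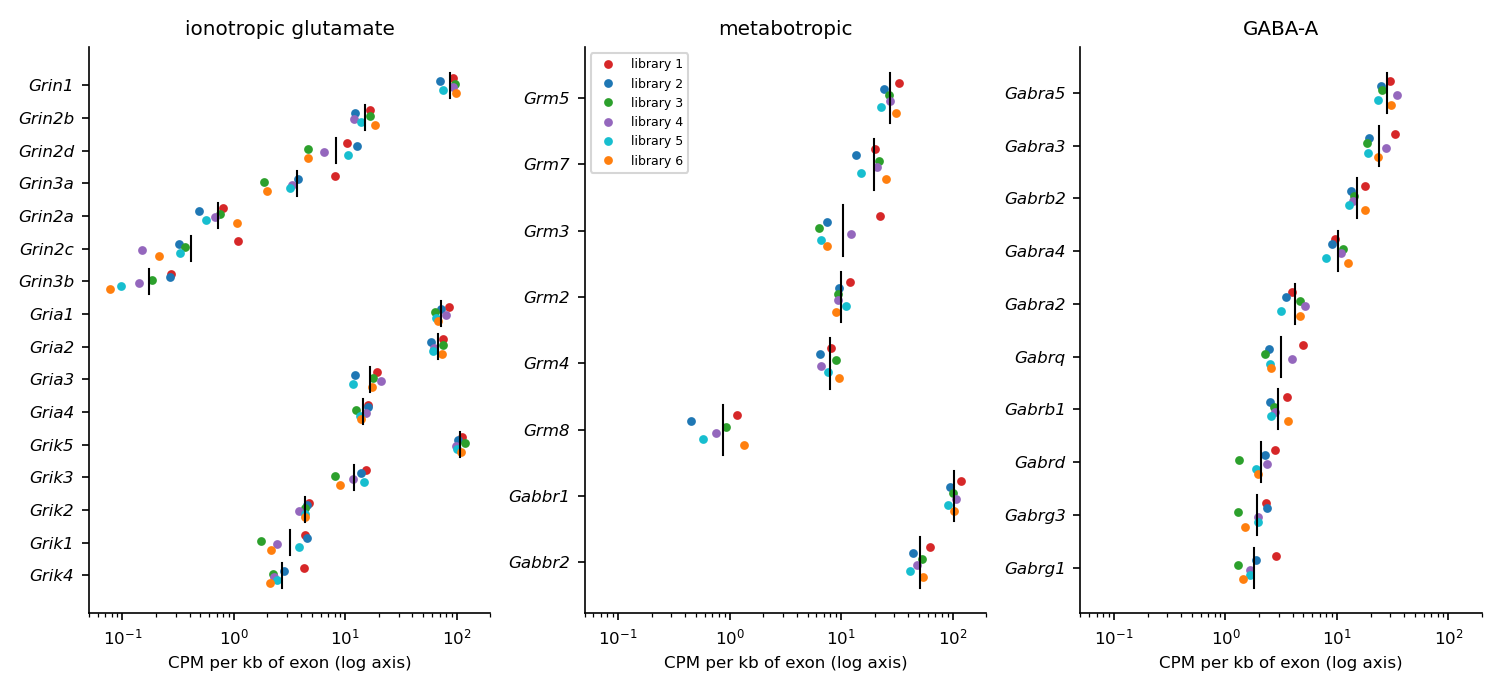
CPM per kb of exon (log axis) of glutamate and GABA receptor subunit genes, with 1 coloured point per control library and a black bar at the mean. Grin1, Gria1, Gria2, Grik5 and Gabbr1 lie between 67.9 and 107 CPM per kb, Grin2d is split between libraries with a mean of 8.21 CPM per kb, and Grin2a lies near 0.726 CPM per kb.

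GABA-A receptors are commonly built from alpha, beta and gamma subunits. Among the beta subunits Gabrb2 had 15 ± 2.23 CPM per kb and Gabrb1 had 2.97 CPM per kb. The alpha subunit genes included Gabra5 (28.1 ± 4.3), Gabra3 (23.6 ± 5.91), Gabra4 (10.2) and Gabra2 (4.17 CPM per kb). Gabra5 made up 32.3% ± 1.83 of the alpha subunit sum. It was above Gabra3 in 5 of 6 libraries, so the order of these neighbours was not stable, whereas Gabra4 was above Gabra2 in all 6. Gabra6, a subunit of cerebellar granule cells, had no count. Gabrd, a delta subunit found outside synapses, had 2.1 ± 0.506 CPM per kb and ran from 3.81 CPM in library 3 to 8.07 CPM in library 1. Gabrg1 and Gabrg3 had 1.79 and 1.91 CPM per kb. The theta subunit Gabrq had 3.12 and the epsilon subunit Gabre 0.392 CPM per kb. Gabrr1, Gabrr2 and Gabrp were all under 1 CPM, and Gabrr3 had no count. Both GABA-B genes were high, with 103 ± 10.1 CPM per kb for Gabbr1 and 50.6 ± 7.71 for Gabbr2. Of the glycine receptor genes the beta subunit Glrb (32.7) and the immature alpha subunit Glra2 (6.9 CPM per kb) led; Glra3 averaged 2.04 CPM, and Glra1 and Glra4 were under 1 CPM.

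Slc12a5, the chloride exporter KCC2 of mature neurons, had 549 to 644 CPM, and Slc12a2, the importer NKCC1, had 58.9 to 81.2 CPM. Per kb the exporter exceeded the importer by 10.7-fold to 14.3-fold (exact test, 6 of 6 libraries). Among sodium channel alpha subunits Scn2a exceeded Scn1a by 3.36-fold to 5.15-fold, again in all libraries by the exact test, and made up 48.2% ± 2.01 of 5 genes. Of the postsynaptic scaffold genes Dlg4, which encodes PSD-95, exceeded Dlg3 by 2.36-fold to 3.17-fold by the same test. The mean of 2.77-fold became 4.98-fold with the longest transcript and 6.28-fold without length. Camk2b was below Camk2a in 6 of 6 libraries, with ratios of 0.449 to 0.709 (exact test, adjusted p = 0.0329), but not by the longest transcript, where the log2 ratio was -0.28 and the test was missed.

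Beside the GABA-B genes, high receptor genes for modulators were Sort1, a neurotrophin co-receptor (62.4 CPM per kb), Cnr1, the CB1 cannabinoid receptor (51.2 ± 14.2), and Ntrk2, the BDNF receptor TrkB (45.2 ± 14.5 CPM per kb). Ntrk2 also has a short form in astrocytes, and its 1424 CPM in library 1 stood above 676 to 863 CPM in the others. Ntrk3 and Ngfr had 83.7 and 2.25 CPM. Of the muscarinic receptors Chrm1 had 38.4, Chrm4 15.4, Chrm3 4.07 and Chrm2 1.21 CPM per kb, and Chrm5 averaged 0.65 CPM. Nicotinic receptor genes were lower: Chrnb2, Chrna4 and Chrna7 had 8.71, 5.02 and 3.52 CPM per kb, Chrnb1 and Chrna1 had 3.05 and 2.69 CPM, and the other 8 were under 1 CPM. Adora1, the A1 adenosine receptor, had 21.1 CPM per kb, Oprl1 11.2 and Oprd1 3.05, while Adora2a and Adora2b had 3.9 and 1.13 CPM. The opioid genes Oprm1 and Oprk1 averaged 0.641 and 0.368 CPM, Cnr2 was lower, and Adora3 had no count. Of 27 monoamine receptor genes 19 averaged 1 CPM or more, led by Adrb1 (15.6 CPM per kb), Adra2c (9.19), Adra1d (7.54), Adra2a (6.64) and Htr2c (4.37 CPM per kb). Drd1 and Drd2, dopamine receptors, had 9.68 and 6.41 CPM, and Drd3 was at 0 in 5 libraries. Over all receptor lists, 50 of 97 neighbouring pairs of genes above 1 CPM kept their order per kb in every library.

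Receptor genes for interferons were present at unequal levels. Ifngr2, the second chain of the interferon gamma receptor, had 52.2 ± 4.06 CPM, and Ifngr1, the ligand-binding chain, had 13.2 ± 1.39 CPM. Per kb Ifngr1 was 0.285 to 0.404 of Ifngr2, below it in 6 of 6 libraries (exact test). For type I interferons Ifnar1 had 75.2 CPM and Ifnar2 11.4 CPM. The other cytokine receptors above 1 CPM were Il6st, Tnfrsf1a, Lifr, Il1rap, Tgfbr1, Tgfbr2, Il6ra, Il1r1, Tnfrsf1b and Il10rb, from 89.8 CPM for Il6st down to 1.17 CPM for Il10rb, and Ifnlr1 averaged 0.127 CPM.

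Most genes varied little between the control libraries. The coefficient of variation (CV, the SD as a percentage of the mean) beyond counting error had a median of 9.18% over 11533 genes at a mean of 5 CPM or more, with quartiles of 5.73% and 14.6%. The common biological CV from edgeR was 17.2%, and 15.7% without library 1. Among 4769 genes at 50 CPM or more the lowest CVs belonged to Suds3, a subunit of a histone deacetylase complex (0.905%), Smarca4, a chromatin remodeller (1.08%), and Usp33, a deubiquitinase (1.08%). Their next neighbours were Ap3s1, Mgea5, Cul4a, Ppp6r2, Sf3a1, Paxip1, Ranbp10, Trap1, Rab11fip3, Fam131b, Foxo3 and Actr1b, the last at 1.66%. Suds3 ran from 76.5 to 78.6 CPM. Of the 15, all but Actr1b lay below the CV that counting alone gives, as did 48 of the 4769 genes (1.01%), so these values cannot rank the genes within the group.

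The 14 genes of the 20S proteasome core were among the even ones, with mean levels of the list from 5.87 to 5.96 log2 CPM. Psmb5, the constitutive beta-5 subunit, ran from 41 to 44.6 CPM. Genes commonly used as references were unequal: Rplp0, Ipo8 and Sdha had CVs of 4.3%, 4.49% and 6.07%, Gapdh and Actb had 8.14% and 9.08%, Tfrc had 23% and B2m, the light chain of MHC class I, had 101%.

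At a mean of 5 CPM or more, 193 of 11493 genes with a symbol (1.68%) had a CV beyond counting of 50% or more. Because the limit is on the mean, some genes passed it only through the libraries where they were high. 9930111J21Rik2 averaged 5.49 CPM, with 25.4 CPM in library 6 and at most 0.516 CPM in libraries 1, 2, 4 and 5. Library 1 was the highest in 107 of the 193 (55.4%) and library 6 in 46 (23.8%), against 22.5% and 15.6% of all genes. In 42 of these 46, library 3 came second. Over all genes, libraries 3 and 6 were the highest pair, in either order, in 13.1%. Since the 193 were picked for their spread, a library far above the others is partly built into the choice. Without library 1 the count of variable genes was 119, and without libraries 1, 3 and 6 it was 63. Interferon-stimulated genes filled most of the top. Gbp4 had 27.2 CPM in library 3 and 104 CPM in library 6 and no more than 4.07 CPM elsewhere. Gbp2, an interferon-inducible GTPase, had 50 and 180.3 CPM in libraries 3 and 6 and 2.75 to 5.05 CPM in the others. Igtp, another such GTPase, had 74 and 179.7 CPM there and 1 to 6.84 CPM in the others. The 25 most variable genes also held F830016B08Rik, 9930111J21Rik2, Tgtp2, Iigp1, Gm43302, Gbp9, Irgm2, Gbp3, Irgm1, Oasl2, Gbp2b and Bst2, and the antigen presentation or checkpoint genes H2-T23, H2-Q4, H2-K1, Nlrc5 and Cd274, all with library 6 highest and library 3 second. The other 5, among them Fam107a, Aldoc, Itih5 and Scrg1, were each highest in library 1.

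Library 6 was the highest in all 24 detected genes of the interferon-stimulated list, and libraries 3 and 6 were the highest pair in 21, against 15.6% and 13.1% of all genes. Not all of the pathway moved alike: Stat2 and Irf9, its transcription factors, had 30.3 to 64.9 CPM and 13.1 to 28.9 CPM, and Ifit2 had 8.97 to 15.7 CPM with library 3 second lowest. Ifnb1, the gene of interferon beta, had no count in any library. B2m had 159 and 277 CPM in libraries 3 and 6 and 34.4 to 47.5 CPM elsewhere. Of the immunoproteasome subunits Psmb8 had 12.1 and 19.2 CPM in libraries 3 and 6 and 0.839 to 2.59 CPM elsewhere. Psmb5 exceeded Psmb8 per kb by 8.71-fold in library 6, 13-fold in library 3 and 63.2-fold to 177-fold in the others; Psmb6 exceeded Psmb9 by 6.33-fold to 149-fold, and Psmb7 exceeded Psmb10 by 1.43-fold to 2.55-fold (exact tests, 6 of 6 libraries each). These sizes depended on length: without it the means of 51.6-fold, 38.6-fold and 2.1-fold became 13.7-fold, 19.8-fold and 4.21-fold, and with the longest transcript the first 2 were 29.1-fold and 59-fold. The microglial list summed to 49.8 to 64.9 CPM, with 62.8 and 64.9 CPM in libraries 3 and 6. It summed to 60.2 CPM in library 4, the library with the lowest mean level of the interferon-stimulated list. The defining microglial genes Tmem119, Cx3cr1 and P2ry12 were at or near 0 in all libraries. The OPC genes Pdgfra and Sox10 were lowest in libraries 3 and 6. Their part in these values was not tested.

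Since these genes moved together, the 250 bases before their starts were searched for the core of the interferon-stimulated response element, written GAAANNGAAA, on both strands. Of the 25 most variable genes 17 had an entry among the RefSeq promoters (GRCm38.p6), and 9 of the 17 held a match. Over all 27025 genes with an entry 3.46% did, and of the variable genes highest in library 1, 3 of 79 did. The 25 genes were picked for their spread in these libraries, and several matches lie in genes of the same families. Examples are Gbp2, Gbp3 and Gbp2b, and Igtp, Irgm1 and Irgm2. The matches are thus not independent, and the difference in shares was not tested. The upstream regions of 4 genes, from a GTPase to MHC class I, are shown as examples, and all 4 hold a match. B2m is not among the 25 most variable genes. The sequences run 5′ to 3′ on the gene's strand, with the matches in capitals.
Gbp2 (chr3:142620413-142620662, plus strand): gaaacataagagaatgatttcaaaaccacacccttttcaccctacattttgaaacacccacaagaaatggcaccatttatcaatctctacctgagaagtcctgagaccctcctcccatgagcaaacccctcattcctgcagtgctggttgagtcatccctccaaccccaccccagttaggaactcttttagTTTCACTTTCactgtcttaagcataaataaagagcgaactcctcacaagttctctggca
Igtp (chr11:58199306-58199555, plus strand): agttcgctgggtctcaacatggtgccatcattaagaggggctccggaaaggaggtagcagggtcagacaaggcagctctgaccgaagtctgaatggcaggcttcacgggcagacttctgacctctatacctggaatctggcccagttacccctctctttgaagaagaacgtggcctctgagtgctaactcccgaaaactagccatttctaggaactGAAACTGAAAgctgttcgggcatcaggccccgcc
Irgm1 (chr11:48871421-48871670, minus strand): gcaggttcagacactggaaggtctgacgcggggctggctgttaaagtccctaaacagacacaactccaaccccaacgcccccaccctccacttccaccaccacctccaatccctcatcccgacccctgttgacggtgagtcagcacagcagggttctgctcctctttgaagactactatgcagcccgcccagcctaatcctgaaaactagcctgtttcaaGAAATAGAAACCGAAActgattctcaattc
B2m (chr2:122147437-122147686, plus strand): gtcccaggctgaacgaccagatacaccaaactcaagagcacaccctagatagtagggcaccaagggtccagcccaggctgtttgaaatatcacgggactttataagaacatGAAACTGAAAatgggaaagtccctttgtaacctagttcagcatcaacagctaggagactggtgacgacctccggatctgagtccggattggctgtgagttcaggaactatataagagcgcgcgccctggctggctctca
The match began 59 bases before the start in Gbp2, where it lies on the opposite strand, 34 bases before it in Igtp and 139 bases before it in B2m. Irgm1 held 2 overlapping matches, the first 30 bases before the start. No match of these letters was found in the same window of Psmb8, Psmb9, Tap1 or H2-K1. The most variable genes 9930111J21Rik2, H2-Q4, Oasl2 and Cd274 also held none, nor did Fam107a, Aldoc and Itih5. Starts are those of the RefSeq promoters, and the windows of Irgm1 and Psmb8 lie inside the gene bounds of the annotation used for exon lengths. A match describes the sequence only.

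**Figure D4:**
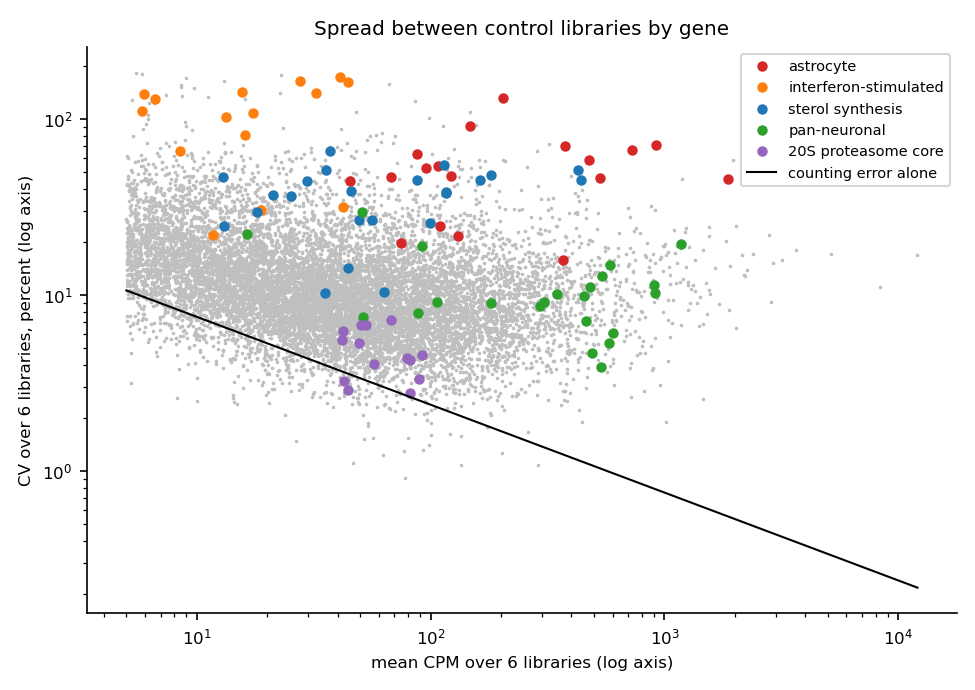
Coefficient of variation over the 6 control libraries (percent, log axis) against mean CPM (log axis) for genes at 5 CPM or more, with grey points for all genes, coloured points for 5 gene lists and a black line for counting error alone. Of the 5 lists the interferon-stimulated one reaches highest, to 173% for Gbp2, astrocyte genes follow with Aldoc at 131%, and the 20S core lies near the line with Psmb5 at 3.25%.

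Sterol synthesis genes separated another pair of libraries. Libraries 2 and 5 were the lowest pair in 20 of 23 genes of the list, against 16.7% of all genes. Hmgcs1, which makes the precursor of mevalonate, had 179.5 and 189 CPM there and 551 to 581 CPM in the other 4 libraries. Sqle, squalene epoxidase, had 70.6 and 72 CPM there and 213 to 266 CPM elsewhere. Msmo1, a methylsterol oxidase, had 36.3 and 33.7 CPM there and 132 to 171 CPM elsewhere. Pmvk and Lss, of the same pathway, were even, with CVs of 10.2% and 10.4%.

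Activity-dependent immediate early genes followed a related order. Libraries 3 and 6 were the highest pair in 19 of 25 genes (13.1% of all genes), and libraries 2 and 5 the lowest pair in 21 (16.7%). Npas4, a neuronal activity-dependent transcription factor, had 152 and 101 CPM in libraries 3 and 6, and 25.6 and 24.1 CPM in libraries 2 and 5. Fos had 126 and 99.3 CPM against 40.3 and 46.4 CPM, and Bdnf, the neurotrophin, had 166 and 188 CPM against 53.9 and 67.9 CPM. Jun did not follow this order and ran from 115 to 147 CPM. Genes of the integrated stress response had libraries 3 and 6 as the highest pair in 12 of 16 and library 1 as the lowest in 12 (20.6% of all genes); Ddit3, a stress transcription factor, had 66.4 and 65.6 CPM in libraries 3 and 6 and 32.9 CPM in library 1. Mitochondrially encoded genes were lowest in library 6 in 11 of 13 (16.5% of all genes).

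**Figure D5:**
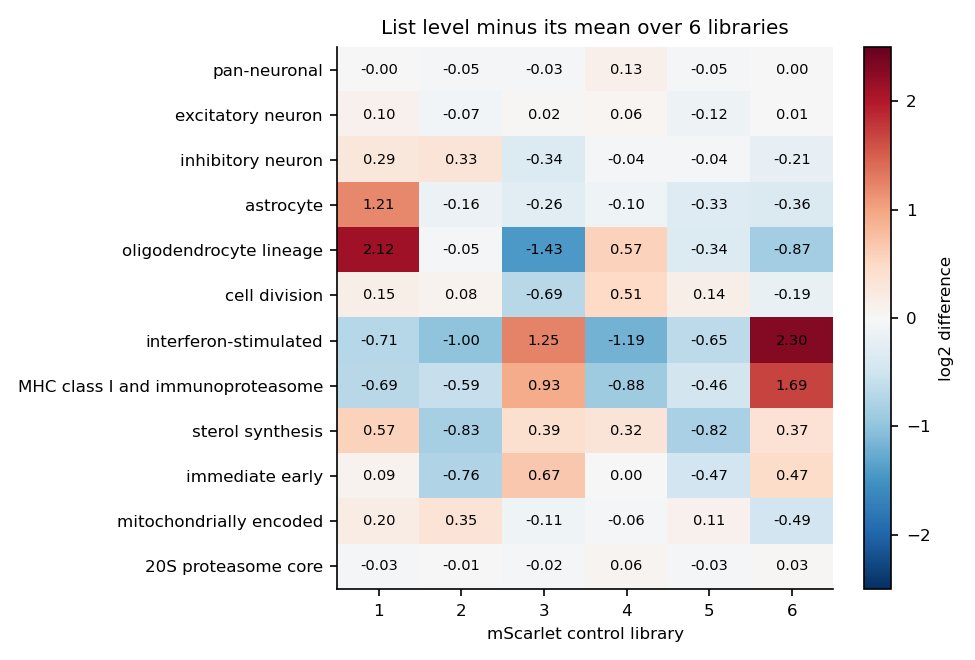
Mean log2 CPM of 12 gene lists in each of the 6 control libraries (columns), minus the list's mean over the libraries, with red above and blue below it. Pan-neuronal and 20S rows are nearly flat, library 1 is highest in the astrocyte row, libraries 3 and 6 in the interferon and MHC rows, and libraries 2 and 5 lowest in the sterol row.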

How the data were processed

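Poly(A)-selected RNA of 6 mSc libraries was analysed. The authors deposited raw counts per Ensembl gene (43629 IDs, whole numbers, no pooling); STAR 2.4, DESeq2 and the builds GRCm39 and mm10 are named in the submitters' processing notes, with no role. The sources used here do not give the counter, its strand setting, its annotation or its rule for reads mapping to several places, so genes with close copies (Gbp, Irgm, H2, tubulin genes) and overlapping genes are uncertain. Symbols were found for 42462 IDs. Counts were scaled with TMM (edgeR 4.0.16, R 4.3.3) to CPM and divided by exon-union length of GENCODE M21 (GRCm38), which may not be the authors' annotation. CV beyond counting is the square root of squared CV minus squared Poisson CV. A total of 20 gene ratios were tested with exact two-sided sign-flip tests over libraries with Benjamini-Hochberg adjustment, on counts plus 0.5; levels and spread are descriptions. The CV computation was tested on simulated data. Named genes are the 25 most abundant by CPM and per kb, receptor genes, up to 6 members a list and the ratio genes, the 15 steadiest and the 25 most variable; further list members are named as examples, chosen after their values were seen, and some genes under these rules are not reported here. The libraries, the 42 lists and the ratios were chosen with earlier results of these data known. Alternatives were other scalings, lengths, filters and left-out libraries. Intervals of counting error are not given, since the spread between libraries exceeds them except for the steadiest genes.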

Additional observations from a re-analysis of the deposited data

Results flagged for a closer look

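In 40 gene lists and 80 named genes, the gap between the highest or lowest of the 6 libraries and its neighbour was compared with the whole range, on the log2 scale. A gap above Dixon's critical value for 6 samples marks a library far from the others in proportion to the range, even where the range is small. Chance gives this in about 1 of 20 groups that are independent and picked without regard to their values. That rate does not apply here. Some named genes, such as Fam107a and Aldoc, were picked for their spread over these libraries. Flags also overlap, since Gfap and Aldoc are astrocyte genes and the astrocyte list was flagged too. The flags are therefore descriptions. The critical value was exceeded by 5 lists and 8 genes. Library 1 was far above the others in the mean log2 CPM of the astrocyte list (8.32), the NMDA receptor list (6.27), the list of opioid, cannabinoid and adenosine receptors (5.05) and the neurotrophin receptor list (7.05). The NMDA receptor list was not higher throughout: library 1 was the highest in 2 of its 6 detected genes and library 6 in 3. Its summed level was 1509 CPM in library 1 and 1484 CPM in library 6. Library 4 was flagged as the highest in the pan-neuronal list, at 8.24 against at most 8.11 in the others, a small gap in a narrow range. Library 1 was also the far highest in 5 genes: Gfap (421 CPM), the desaturase Scd2 (4248 CPM), Apoe (3601 CPM), Fam107a (41.9 CPM) and Aldoc (749 CPM). Library 4 was far below the others in Scn1a, at 55.4 CPM, and far above them in Ldha, at 313 CPM. Library 6 was far above the others in Psmb10, at 29.3 CPM.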

How the results depend on the processing

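Of 291 recomputed values over 36 results, 277 met the limits set: the same direction and side of the threshold for a ratio with another length, less than 1 SD for a level, a share or a ratio without 1 library, and within 1.5 times for a count or the common CV. Leaving out 1 of 6 libraries cannot move a mean by 1 SD, so no level, share or ratio could miss that limit. Those values are therefore no evidence of stability. Ratios within these limits still changed in size with length, as given beside them. With any count instead of 1 CPM, 26663 genes were detected. Without mitochondrially encoded genes the first 100 genes held 13.5% of the CPM. Variable genes numbered 440 at a mean of 1 CPM or more, 119 to 235 when 1 library was left out (the lowest without library 1), and 63 without libraries 1, 3 and 6, an alternative chosen after seeing the data. With the longest transcript as length, the Gria1 and Gria2 shares were 34.5% and 44.5%, and the Gabra5 share was 28.5%. The log2 Gria2 to Gria1 ratio turned to 0.37 with that length and to 1.27 without length; log2 Ldhb to Ldha was 0.7 with the exon union and turned to -0.37 without length. The tests of Camk2b to Camk2a (-0.28) and Ldhb to Ldha (0.1) were missed with the longest transcript, and that of Tubb3 to Gfap (1.36) without length. With 5 libraries the sign-flip test cannot go below 0.0625, so ratios without 1 library were compared as values. Levels compared between genes thus rest on the annotation; depth limits genes under about 1 CPM. No paired analysis was possible because 1 group holds each replicate number once.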

Other observations

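Outside the lists, several genes separated the libraries and were chosen after their values were seen. Scg2, a neuropeptide precursor, had 1723 and 1870 CPM in libraries 3 and 6 and 540 and 627 CPM in libraries 2 and 5. Acan, the core protein of perineuronal nets, had 68.7 and 93.8 CPM in libraries 3 and 6 and 9.25 and 16.1 CPM in libraries 2 and 5. Hmox1, heme oxygenase, was lowest in library 1 with 34.7 CPM and reached 159 to 179 CPM in libraries 3, 4 and 6. Atp13a4 had 8.13 CPM in library 1 and 122 CPM in library 3. Scd1, a lipid desaturase, had 474 CPM in library 1 and 49.7 to 127 CPM in the others.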
